A study of Capra hircus with 6 samples.

Results

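The genes described here encode receptors and ligands by which cells talk to blood vessels: FLT1 and KDR (receptors for vascular endothelial growth factor, VEGF), VEGFC (a VEGF-family ligand), ANGPT1 and ANGPT2 (angiopoietins), EDN1, EDNRA and EDNRB (an endothelin and its receptors), and EMCN and JAM2 (surface proteins of endothelium and cell junctions). They were found by gene symbol in a table of 16599 genes with values, and all 10 were present, each with the same gene ID and symbol in the RefSeq table of assembly ARS1.2. FLT1, JAM2, EMCN and EDN1 were chosen because the first pair stood higher and the second pair lower in the knockdown lines. Their values are therefore a description and carry no test. For the other 6 genes the test across all genes is given, with the reservation that the set as a whole was drawn up with earlier results of these data known.

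The cells were mGSCs-I-SB, a goat (Capra hircus) line labelled as spermatogonial stem cells, grown in DMEM/F12 with 10% fetal bovine serum. Messenger RNA was sequenced from 3 lines with 2 libraries each: shCON, which carried a control hairpin RNA and is labelled wild type in genotype, shUCHL1, labelled UCHL1 knockdown, and shHSPA8, labelled HSPA8 knockdown. UCHL1 removes ubiquitin from proteins and marks spermatogonia in the testis. HSPA8 is a chaperone of the HSP70 family that cells make without stress. The labels do not give the number of hairpins per gene or of clones per line, nor whether both libraries of a line stem from separate cultures, and the p-values below speak of library-to-library spread alone, which may be technical.

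In vessels, VEGF ligands signal through receptor tyrosine kinases. KDR carries most of the mitogenic signal, while FLT1 binds VEGFA tightly and can act as a decoy, and VEGFC signals mainly through FLT4. Angiopoietins bind the receptor TEK, with ANGPT1 as an activator and ANGPT2 as a context-dependent antagonist. Endothelin 1 is a vasoconstrictor peptide that acts on the G protein-coupled receptors EDNRA and EDNRB. In the testis VEGF ligands and endothelin are made by somatic cells as well as at vessels, and EMCN and JAM2 are best known from endothelial surfaces and junctions, JAM2 also from contacts of germ and Sertoli cells.

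Each library held between 15710529 and 16417262 counts, and the filter on low counts kept 12665 genes. The targeted genes followed the labels: UCHL1 measured 428 ± 32.3 CPM in shCON against 96.0 ± 2.36 CPM in shUCHL1, and HSPA8 measured 4062 ± 67.9 CPM in shCON against 2578 ± 73.4 CPM in shHSPA8 (TMM-scaled CPM, counts scaled to a common library size; SD, n = 2). The libraries of a line were not equally alike. The chi-square between both libraries of a line, per gene and relative to pure sampling, was 22.8 for shCON, 12.1 for shHSPA8 and 2.39 for shUCHL1. The fit used below gave all lines a shared estimate of spread for each gene. Its SE and p therefore do not reflect this difference between the lines. Of 20 listed germ cell markers 10 carried values. DDX4, a helicase of germ cells, had 7 to 32 counts per library, RET 4 to 25, GFRA1 3 to 17 and CDH1 1 to 10. KIT and SYCP3 had 0 or 1. ID4 had 31 and 54 counts in shCON and 95 to 162 in the knockdown lines. The list's integrin genes ITGB1 (45873 to 76214 counts) and ITGA6 (988 to 1868), which many cell types express, and UCHL1 itself (1544 to 7369) were abundant. The fibroblast collagen gene COL1A1 had 120487 to 163741 counts. Of the listed Sertoli cell markers GATA4 had 798 to 1832 counts and SOX9 413 to 1204, but AMH had 8 to 21 and DHH 1 to 6.

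Levels below are the deposited FPKM values (reads scaled by transcript length and library size), which can be set side by side between genes. In shCON cells VEGFC was the highest of the 10 genes at 182 ± 1.36 FPKM, followed by EMCN at 42.3 ± 1.77 and EDN1 at 23.3 ± 2.18 (SD, n = 2). ANGPT1 (11.7 ± 3.83) and EDNRA (4.13 ± 0.714) came next. JAM2 and FLT1 stood near 1 FPKM and their libraries overlapped, and ANGPT2, EDNRB and KDR lay below that. In the knockdown lines this order was different. VEGFC remained the highest at 113 ± 3.67 FPKM in shUCHL1 and 144 ± 8.33 FPKM in shHSPA8. Behind it in shUCHL1 stood JAM2 (9.73 ± 0.750), EDNRA (9.60 ± 0.721) and ANGPT1 (9.37 ± 0.573), which did not differ from each other beyond their spread. In shHSPA8 EDNRA was next at 18.1 ± 2.10 FPKM, above ANGPT1 (8.79 ± 2.48) and JAM2 (6.69 ± 0.495), whose libraries overlapped. EMCN and EDN1, behind VEGFC alone in shCON, were below EDNRA, JAM2 and ANGPT1 by mean FPKM in both knockdown lines.

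**Figure D1:**
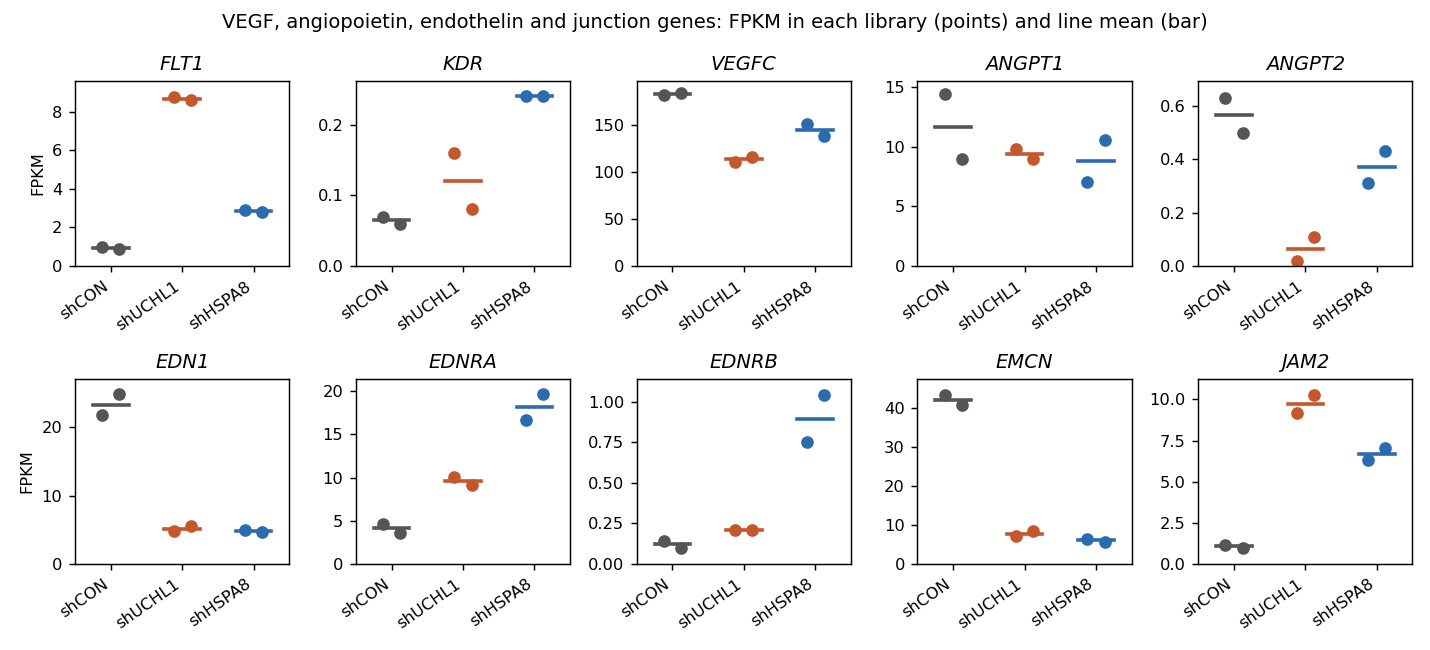
Deposited FPKM (linear axes that start at 0) of the 10 genes in each of the 6 libraries (points), with the mean of each line as a bar (n = 2). FLT1 and JAM2 are lowest in shCON and EMCN and EDN1 highest there, while EDNRA, EDNRB and KDR are highest in shHSPA8.

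Against shCON, with a threshold of 0.05 on the adjusted p, 7 of the 10 genes were called in shUCHL1 (3 higher, 4 lower), beside 15.7% of all genes tested (8.54% higher, 7.15% lower). In shHSPA8 8 were called (5 higher, 3 lower), beside 14.7% of all genes (8.66% higher, 6.02% lower). Between the knockdown lines 5 were called (1 higher and 4 lower in shUCHL1), beside 14.6% of all genes (6.2% higher, 8.35% lower). These counts include the genes chosen for their direction, so nothing is read from them. The comparisons share libraries and are not independent of each other. All 10 genes passed the filter on low counts, but EDNRB reached its cutoff in the shHSPA8 libraries alone and KDR in those and 1 shUCHL1 library, and ANGPT2 did not reach the filter's cutoff in either shUCHL1 library. In bulk RNA, fewer cells that carry a transcript and less of it per cell cannot be told apart.

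Of the VEGF receptors, FLT1 was present at low level in shCON and stood higher in both knockdown lines, most of all in shUCHL1. Its FPKM was 1.00 and 0.91 in the shCON libraries, 8.75 and 8.59 in shUCHL1, and 2.89 and 2.83 in shHSPA8. The 3 lines did not overlap, and the replicates of each line were close together. The fitted level was 8.58-fold higher in shUCHL1 than in shCON (log2 fold change 3.10, SE 0.12), 3.03-fold higher in shHSPA8 than in shCON (1.60, SE 0.12), and between the knockdown lines shUCHL1 stood 2.83-fold above shHSPA8 (1.50, SE 0.10). These values rest on 99 to 906 counts per library.

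KDR, the main signalling receptor of VEGFA in endothelium, was scarce in every line. It had 7 and 6 counts in shCON, 15 and 7 in shUCHL1, and 23 and 22 in shHSPA8. The shHSPA8 libraries lay above all others, while one shUCHL1 library overlapped shCON. The level in shHSPA8 was 3.51-fold that in shCON (log2 fold change 1.81, SE 0.42, adjusted p = 0.0288 by edgeR's quasi-likelihood F test, Benjamini-Hochberg adjusted). No shCON library reached the filter's cutoff, so KDR entered the test through the lines where it is higher, and this p is weak support for the difference. Fitted with no filter on low counts, it was 0.0382. In shUCHL1 the log2 fold change of 0.71 (SE 0.48) did not pass (adjusted p = 0.380), and neither did the difference between the knockdown lines (-1.10, SE 0.37, adjusted p = 0.0925). The KDR call was lost without either shCON library (adjusted p = 0.0669 and 0.0802), without either shHSPA8 library (0.110 and 0.103) and with DESeq2 (0.127) or limma on log2 FPKM values (0.0574). Per length, FLT1 exceeded KDR 14.3- and 15.2-fold in the shCON libraries and 12.04- and 11.79-fold in shHSPA8. In shUCHL1 the ratios were 54.7 and 107, where KDR had 15 and 7 counts.

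VEGFC, the ligand of lymphatic growth, was the most abundant of these transcripts and fell in both knockdown lines. Its FPKM was 181 and 183 in shCON, 111 and 116 in shUCHL1, and 150 and 138 in shHSPA8. The 3 lines did not overlap, with shUCHL1 the lowest. In shUCHL1 VEGFC fell 1.69-fold (log2 fold change -0.76, SE 0.08, adjusted p = 0.00167 by edgeR's quasi-likelihood F test, Benjamini-Hochberg adjusted), a call that none of the 13 alternatives removed. The fall in shHSPA8 was 1.26-fold (-0.33, SE 0.08, adjusted p = 0.0384), and VEGFC was lower in shUCHL1 than in shHSPA8 (-0.43, SE 0.08, adjusted p = 0.0167). Both of these smaller differences lost their call without either shUCHL1 library or either shHSPA8 library, and the first also with DESeq2 (0.0502) and in a fit to the 4 libraries compared (0.123). Over the fits without 1 of those libraries the adjusted p ran from 0.113 to 0.215 for shHSPA8 against shCON and from 0.0556 to 0.213 between the knockdown lines.

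ANGPT1, the activating ligand of TEK, did not pass the test in any comparison. Its FPKM was 14.40 and 8.99 in shCON, 9.77 and 8.96 in shUCHL1, and 7.03 and 10.54 in shHSPA8. The lines overlapped, and the 2 shCON libraries differed 1.61-fold in CPM and those of shHSPA8 1.52-fold. Its log2 fold change was -0.39 (SE 0.26, adjusted p = 0.374) in shUCHL1 and -0.40 (SE 0.26, adjusted p = 0.370) in shHSPA8.

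ANGPT2, the angiopoietin that can oppose ANGPT1, was low in shCON and nearly undetected in shUCHL1. It had 28 and 23 counts in shCON, 1 and 5 in shUCHL1, and 14 and 19 in shHSPA8. Both shUCHL1 libraries lay below every other library. ANGPT2 fell 8.43-fold in shUCHL1 (log2 fold change -3.08, SE 0.52, adjusted p = 0.00908 by edgeR's quasi-likelihood F test, Benjamini-Hochberg adjusted), and the value rests on 6 counts over that line. No shUCHL1 library reached the filter's cutoff, so ANGPT2 entered the test through the lines where it is higher. Its p-values for shUCHL1, against shCON and against shHSPA8, are therefore weak support for a difference. Without shUCHL1 replicate 1, which had 1 count, the log2 fold change was -2.39 with an adjusted p of 0.0618. In shHSPA8 it was -0.59 (SE 0.37, adjusted p = 0.343). ANGPT2 was lower in shUCHL1 than in shHSPA8 by a log2 fold change of -2.49 (SE 0.56, adjusted p = 0.0287), a call lost without any 1 of those 4 libraries (adjusted p from 0.0605 to 0.179, log2 fold change from -3.95 to -1.79).

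**Figure D2:**
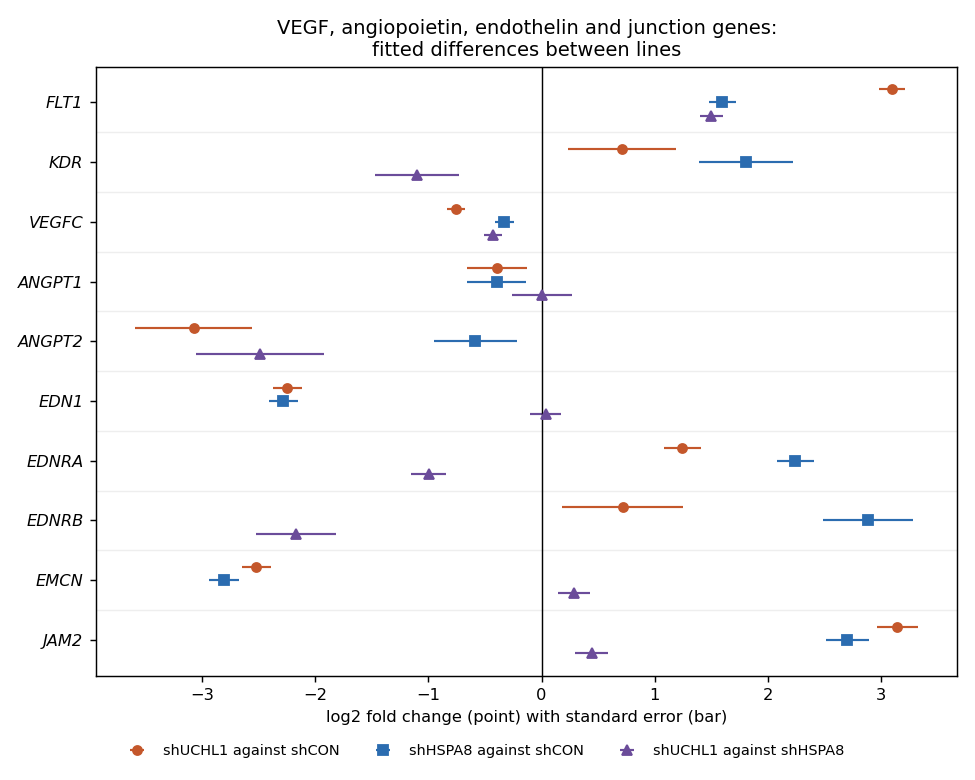
Log2 fold change of each of the 10 genes in the 3 comparisons (points, linear axis), with the standard error of the fit as a bar. FLT1 (3.10 and 1.60) and EDNRA (1.25 and 2.25) lie above 0 against shCON in both knockdown lines, with FLT1 larger in shUCHL1 and EDNRA larger in shHSPA8, while EMCN and EDN1 lie below -2 in both.

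In the endothelin system the ligand stood lower and the receptor EDNRA rose. EDN1, the precursor of endothelin 1, had an FPKM of 21.76 and 24.84 in shCON, 4.81 and 5.5 in shUCHL1, and 4.88 and 4.59 in shHSPA8. The knockdown lines overlapped each other and lay below both shCON libraries. The fitted level was 4.75-fold lower in shUCHL1 (log2 fold change -2.25, SE 0.13) and 4.87-fold lower in shHSPA8 (-2.29, SE 0.13), and the difference between the knockdown lines was 0.04 (SE 0.14).

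EDNRA, the receptor through which endothelin 1 contracts smooth muscle, had an FPKM of 4.63 and 3.62 in shCON, 10.11 and 9.09 in shUCHL1, and 16.66 and 19.63 in shHSPA8. The 3 lines did not overlap, and shHSPA8 was the highest. In shUCHL1 EDNRA rose 2.37-fold (log2 fold change 1.25, SE 0.17, adjusted p = 0.00358 by edgeR's quasi-likelihood F test, Benjamini-Hochberg adjusted) and 4.74-fold in shHSPA8 (2.25, SE 0.16, adjusted p = 2.5e-04). No alternative removed either call. It was lower in shUCHL1 than in shHSPA8 (-1.0, SE 0.15, adjusted p = 0.00740), and that call was lost without shUCHL1 replicate 1 (adjusted p = 0.0657) or 2 (adjusted p = 0.0823). Of 12 listed markers of mural cells, the contractile cells of vessel walls that carry EDNRA in tissue, 10 were tested, and their summed level ran from 3720 to 4588 in shCON, 1822 to 1905 in shUCHL1 and 3275 to 3697 in shHSPA8, in CPM. Most of this sum came from ACTA2 and TAGLN. The pericyte marker RGS5 had 0 or 1 count in each library, while PDGFRB had 1893 to 3364, CSPG4 5823 to 10118 and NOTCH3 404 to 498. In shUCHL1 none of the 10 tested mural markers rose and 5 fell, beside 8.54% of all genes tested higher and 7.15% lower. In shHSPA8 1 rose (PDGFRB) and 1 fell, beside 8.66% higher and 6.02% lower. Whether they had a part in the EDNRA values was not tested.

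EDNRB, the second endothelin receptor, was near the limit of detection except in shHSPA8. It had 4 and 3 counts in shCON, 6 and 6 in shUCHL1, and 22 and 30 in shHSPA8. Both shHSPA8 libraries lay above all others. The level in shHSPA8 was 7.40-fold that in shCON (log2 fold change 2.89, SE 0.39, adjusted p = 0.00350 by edgeR's quasi-likelihood F test, Benjamini-Hochberg adjusted), from 7 counts over shCON. EDNRB entered the test through the shHSPA8 libraries alone, where it is high, so this p is weak support for the difference. The same holds for the p between the knockdown lines below. With no filter on low counts the adjusted p of shHSPA8 against shCON was 0.00474. In shUCHL1 the log2 fold change was 0.72 (SE 0.53, adjusted p = 0.493). EDNRB was lower in shUCHL1 than in shHSPA8 (-2.17, SE 0.35, adjusted p = 0.00925), a call lost without either shUCHL1 library (adjusted p = 0.0910 and 0.0898), without shHSPA8 replicate 2 (0.0573) and with DESeq2 (0.0531). Melanocytes are a known site of EDNRB. Of 7 listed melanocyte markers 2 were tested and neither was called in any comparison, the pigment gene TYR had 0 or 1 count in each library, and MITF (234 to 289 counts) and PMEL (101 to 129) were present in all. Whether melanocyte-type transcripts had a part in the EDNRB values was not tested.

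Ligand and receptor thus changed rank per length. The ratio of EDN1 to EDNRA in FPKM was 4.70 and 6.86 in the shCON libraries, 0.476 and 0.605 in shUCHL1, and 0.293 and 0.234 in shHSPA8. It was above 1 in both shCON libraries and below 1 in the other 4. Since EDN1 was chosen for its fall, the ratio is a description. EDNRA exceeded EDNRB in every library, 33.1- and 36.2-fold in shCON, 48.1- and 43.3-fold in shUCHL1, and 22.2- and 18.9-fold in shHSPA8.

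**Figure D3:**
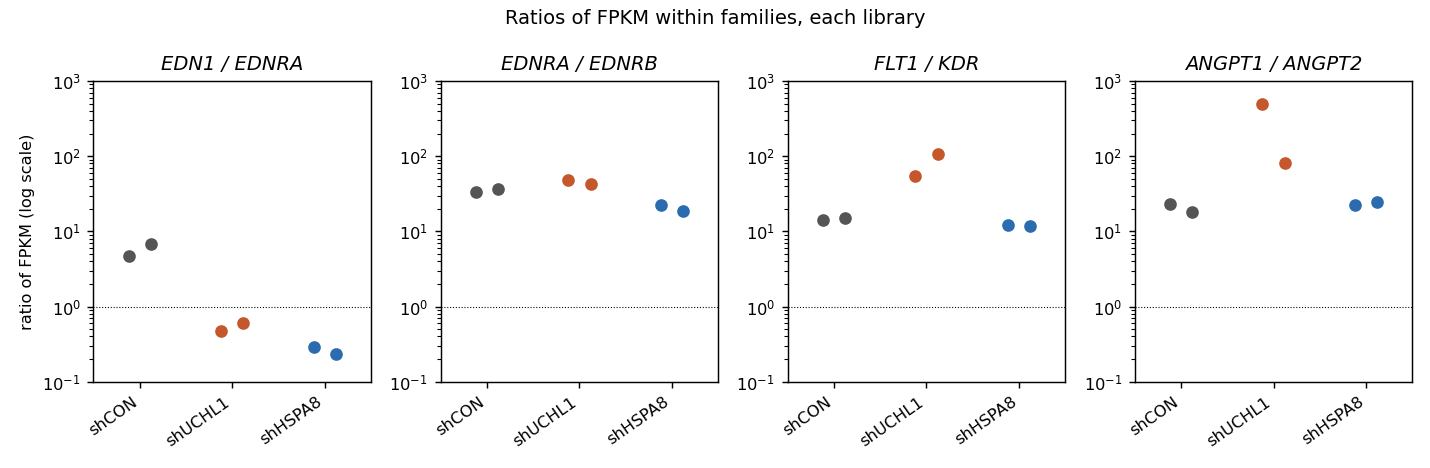
Ratio of FPKM between related genes in each library (points; log axes, dotted line at 1). EDN1 to EDNRA passes from 4.70 and 6.86 in shCON to below 1 in all 4 knockdown libraries, and the 2 high ratios of ANGPT1 to ANGPT2 in shUCHL1 rest on 1 and 5 ANGPT2 counts.

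EMCN, an endothelial sialomucin also called endomucin, was the second most abundant of these transcripts in shCON and stood far lower in both knockdown lines. Its FPKM was 43.51 and 41.01 in shCON, 7.06 and 8.36 in shUCHL1, and 6.25 and 5.73 in shHSPA8. All knockdown libraries lay below both shCON libraries. The fitted level was 5.74-fold lower in shUCHL1 (log2 fold change -2.52, SE 0.13) and 7.02-fold lower in shHSPA8 (-2.81, SE 0.13), from 108 to 826 counts per library.

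JAM2, a junctional adhesion molecule that binds its partner on the neighbouring cell, showed the opposite pattern. Its FPKM was 1.17 and 0.94 in shCON, 9.20 and 10.26 in shUCHL1, and 6.34 and 7.04 in shHSPA8. The 3 lines did not overlap. The fitted level was 8.86-fold higher in shUCHL1 (log2 fold change 3.15, SE 0.18) and 6.52-fold higher in shHSPA8 (2.70, SE 0.19), and between the knockdown lines shUCHL1 stood 1.36-fold above shHSPA8 (0.44, SE 0.14).

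Endothelial markers were checked because EMCN, FLT1 and KDR are best known from endothelium. Of 19 listed markers 14 carried values and 6 were tested. PECAM1, an adhesion molecule of endothelial contacts, had 4 to 11 counts per library, the endothelial cadherin CDH5 12 to 27, VWF 6 to 20, and CLDN5 0 to 4. In the same libraries EMCN had 108 to 826 counts and FLT1 99 to 906. The summed level of the list ran from 38.5 to 39.5 in shCON, 40.1 to 41.1 in shUCHL1 and 56.5 to 57.6 in shHSPA8, in CPM. Most of it came from the transcription factor ERG, at 26.4 to 46.8 CPM. ERG had 433 to 741 counts per library, within the range of EMCN and FLT1. PLVAP and SOX18 were at 0 in 5 of 6 libraries. EGFL7 had 34 to 108 counts and NOS3 12 to 57. Of the 6 tested markers 1 rose and none fell in shUCHL1, beside 8.54% of all genes tested higher and 7.15% lower. In shHSPA8 2 rose and 1 fell, beside 8.66% higher and 6.02% lower. Whether endothelial transcripts had a part in the values of the described genes was not tested.

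**Figure D4:**
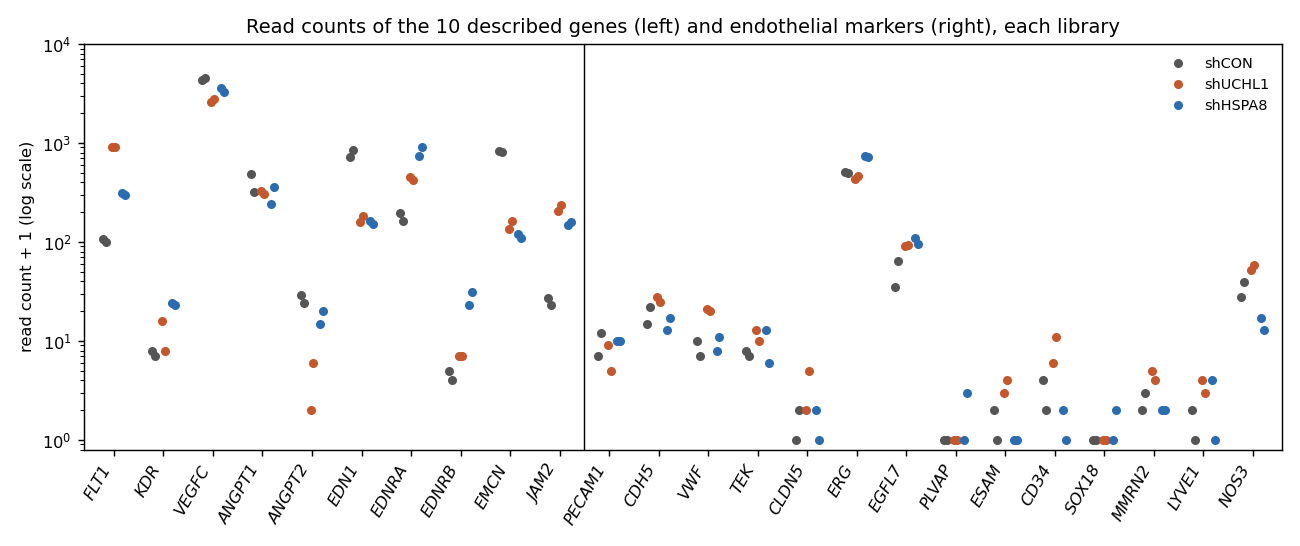
Read counts plus 1 (log axis) of the 10 described genes (left of the line) and of the 14 endothelial markers with values (right), for each library, coloured by line. Markers other than ERG, EGFL7 and NOS3 stay below 30 counts in every library, while EMCN has 826 and 810 counts in shCON and between 108 and 160 in the knockdown lines.

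Of the other genes of these pathways, 102 were listed, 87 carried values and 69 were tested. In shUCHL1 14 rose and 8 fell, with a median log2 fold change of 0.15 beside 0.0094 over all genes. In shHSPA8 22 rose and 7 fell, with a median of 0.12 beside -0.0032 over all genes. That is 31.9% and 42.0% of the tested genes called, beside 15.7% and 14.7% of all genes tested. The lists were drawn up with earlier results of these data known, so nothing is read from these shares or from the counts by list below. Between the knockdown lines 7 were higher and 18 lower in shUCHL1 (36.2%, beside 14.6% of all genes tested), 25 calls in all. Dropping a shUCHL1 library reduced that count to 4 (replicate 1) or 3 (replicate 2), and dropping a shHSPA8 library to 11 or 13. Leaving out 1 shUCHL1 library left 7 calls in shUCHL1 in place of 22, and leaving out 1 shHSPA8 library left 18 in shHSPA8 in place of 29.

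Among VEGF ligands and co-receptors, VEGFA, the main angiogenic ligand and a target of hypoxia signalling, rose in both lines. Its level was 180 ± 1.36 CPM in the control line, 292 ± 8.63 CPM with the UCHL1 hairpin and 388 ± 31.7 CPM with the HSPA8 hairpin (SD, n = 2). The log2 fold change was 0.70 in shUCHL1 (SE 0.09, adjusted p = 0.00297 by edgeR's quasi-likelihood F test, Benjamini-Hochberg adjusted, and 0.0513 without shUCHL1 replicate 1) and 1.11 in shHSPA8 (SE 0.09, adjusted p = 3.5e-04). NRP2, a co-receptor of VEGFC, rose in shHSPA8 (0.66, SE 0.10) and had a value of 0.03 (SE 0.10) in shUCHL1. PGF, a ligand of FLT1, rose in shUCHL1 (1.08, SE 0.25, adjusted p = 0.0268), a call lost without shCON replicate 1 or either shUCHL1 library (adjusted p from 0.0800 to 0.178) and with DESeq2 (0.215). VEGFB and NRP1 passed in no comparison, and FLT4, the receptor of VEGFC, had no values and was not analysed here. In all, 2 of 8 tested genes of this list rose in shUCHL1 and 3 of 8 in shHSPA8, and none fell. These are 25% and 37.5%, beside 15.7% and 14.7% of all genes tested. The third in shHSPA8, beside VEGFA and NRP2, was PDGFRB (0.78, SE 0.08). It is a PDGF receptor that the list included, and also one of the listed mural markers.

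The receptor of the angiopoietins, TEK, had 5 to 12 counts per library and passed in no comparison, and TIE1 had no values. Among endothelin processing enzymes 3 were tested, and 1 was called in shUCHL1 and 2 in shHSPA8. That is 33.3% and 66.7%, beside 15.7% and 14.7% of all genes tested. ECE1, which cleaves big endothelin to the active peptide, was at 334 ± 29.1 CPM in shCON and had a log2 fold change of -0.36 (SE 0.09) in shHSPA8 with an adjusted p of 0.0404, which ran from 0.0664 to 0.207 without any 1 library other than shCON replicate 1 and was 0.121 in a fit to the 4 libraries compared. In shUCHL1 it was 0.07 (SE 0.09). ECE2 was called lower in shUCHL1 (-0.60, SE 0.11), a call that 3 of the 13 alternatives removed. Between the knockdown lines ECE2 was also lower in shUCHL1 (-0.45, SE 0.11), a call that 8 of the 13 removed. MME was called higher in shHSPA8 (0.42, SE 0.11), a call that 12 of the 13 removed. EDN2 and EDN3 had no values, so EDN1 was the only endothelin ligand measured here.

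Among junction genes F11R, which encodes JAM-A, moved in opposite directions. Its mean level was 5.98 CPM in the control line, 9.95 CPM with the UCHL1 hairpin and 2.91 CPM with the HSPA8 hairpin. It rose in shUCHL1 (log2 fold change 0.73, SE 0.15, adjusted p = 0.0166 by edgeR's quasi-likelihood F test, Benjamini-Hochberg adjusted) and fell in shHSPA8 (-1.04, SE 0.17, adjusted p = 0.00755). The difference between the knockdown lines was 1.77 (SE 0.16, adjusted p = 0.00124). The call in shUCHL1 was lost without either shUCHL1 library (adjusted p = 0.128 and 0.148) and with DESeq2 (0.0875), and that in shHSPA8 without shHSPA8 replicate 1 (0.0533). ESAM, an endothelial junction protein, had 0 to 3 counts per library, and JAM3, the partner of JAM2, had no values. CLMP (0.94, SE 0.10) and CXADR (0.94, SE 0.15), adhesion molecules of the same wider family, rose in shHSPA8.

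Of the angiogenesis regulators outside these families, 7 of 24 rose and 5 fell in shUCHL1, and 11 rose and 1 fell in shHSPA8. That is 50% of the list in each line, beside 15.7% and 14.7% of all genes tested. The matrix protein genes THBS1 and THBS2, both of which encode inhibitors of angiogenesis, differed: THBS1 fell in shUCHL1 (log2 fold change -1.21, SE 0.14) and had a value of -0.02 (SE 0.14) in shHSPA8, while THBS2 rose in both (1.23, SE 0.10, and 1.16, SE 0.10). APLN, the ligand apelin, rose in shHSPA8 (1.34, SE 0.13), and its receptor gene APLNR fell in shUCHL1 (-1.29, SE 0.16). APLNR was also called lower in shHSPA8 (-0.59, SE 0.16), a call that 10 of the 13 alternatives removed. The collagen gene COL18A1 rose in shUCHL1 (3.71, SE 0.25) and shHSPA8 (4.80, SE 0.23), and no alternative removed either call. It had 9 and 6 counts in shCON, below the filter's cutoff, so these calls are weak support for a difference. The chemokine gene CXCL8 rose in both lines (1.14, SE 0.09, and 1.84, SE 0.09). Of 19 tested genes of a separate list, VEGF pathway signalling, 3 rose and 2 fell in each knockdown line against shCON. That is 26.3%, beside 15.7% and 14.7% of all genes tested. In this list RCAN1, a calcineurin inhibitor induced by VEGF signalling in endothelium, rose in shHSPA8 (1.36, SE 0.10) and in shUCHL1 (0.75, SE 0.10). Its call in shUCHL1 was lost without shUCHL1 replicate 2. SRC fell in shUCHL1 (-0.59, SE 0.09) and shHSPA8 (-0.51, SE 0.09), and SPHK1 fell in shUCHL1 (-0.80, SE 0.16). Each of these SRC and SPHK1 calls was lost without some library of its knockdown line.

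**Figure D5:**
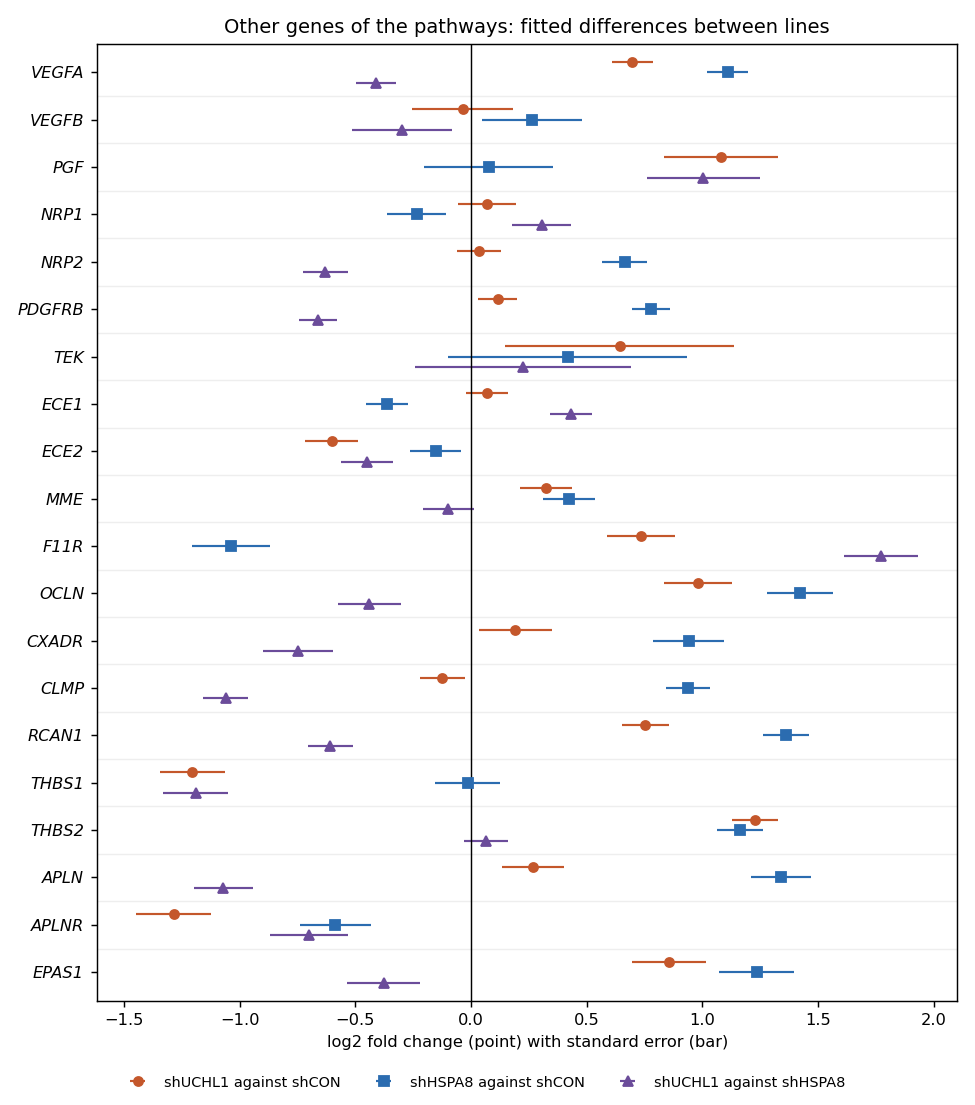
Log2 fold change of 20 other genes of these pathways in the 3 comparisons (points, linear axis), with the standard error of the fit as a bar. VEGFA lies above 0 against shCON in both knockdown lines (0.70 and 1.11), and F11R on opposite sides (0.73 and -1.04).

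The genes whose pattern over the 6 libraries was closest to each chosen gene were found by the root mean square difference of centred log2 CPM, as a description. For FLT1 these were SSTR2 (0.09), NEFL (0.10) and KCNMA1 (0.11), of which SSTR2 had 1 count in each shCON library and NEFL 4 and 3. For JAM2 they were FAM49A (0.10), IGSF3 (0.13) and TOX3 (0.21), the last with 4 counts in each shCON library. EMCN was closest to NIPAL4 (0.19), PDGFB (0.20) and EDN1 (0.23), and EDN1 to PDGFB (0.16), GABRA4 (0.19) and KLK12 (0.20). PDGFB, a growth factor that recruits mural cells, was thus near both, and EMCN and EDN1 were the closest pair among the 10 genes. In the knockdown libraries PDGFB had 6 to 10 counts and KLK12 1 to 3. EDNRA and EDNRB differed by 0.38 and FLT1 and JAM2 by 0.50 on the same measure.

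The genes next to these 10 on assembly ARS1.2 were read as well, a choice made after the values of the 10 had been seen. Of 20 nearest tested neighbours, 2 passed the test in shUCHL1, 2 in shHSPA8 and 3 in the comparison of both knockdowns, beside 15.7%, 14.7% and 14.6% of all genes tested, so the neighbours' counts were near or below the background. PAN3 and POMP, beside FLT1, and ATP5J and MRPL39, beside JAM2, were called in no comparison, with log2 fold changes between -0.17 and 0.24. PHACTR1, an actin regulator gene beside EDN1, rose in shUCHL1 (log2 fold change 1.38, SE 0.17, adjusted p = 0.00297 by edgeR's quasi-likelihood F test, Benjamini-Hochberg adjusted), where EDN1 stood lower, and had a value of 0.03 (SE 0.19) in shHSPA8.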

How the data were processed

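The submitters' processing notes name Trimmomatic 0.36. Aligner, counter, build and strand setting: not given in the sources used here. The authors deposited 1 table of 33229 entries, 16599 of them with values. Per the file headers it gives read counts, which are expected counts (estimates) since 1014 to 1117 genes per library are not whole numbers, and FPKM. All 60 counts of the 10 genes are whole. The authors' deposited log2 ratios and p-values were not used for any result. Counts were rounded and tested with edgeR 4.0.16 (R 4.3.3; filterByExpr, TMM, quasi-likelihood F test, group as the only term, all 6 libraries), with Benjamini-Hochberg adjustment over 12665 genes. The SE is the log2 fold change over the square root of F. The script was tested on simulated data. Samples were grouped by title.

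The members and lists were chosen with earlier results of these data known. Named genes were the 10 members, the targeted genes, fixed core pathway genes, up to 4 called list genes per list, comparison and direction with at least 5 CPM, and the 3 nearest in pattern; not all are described. Alternatives were library-size scaling, DESeq2 1.42.0, no filter, limma 3.58.1 on log2(FPKM + 0.5), a length offset, a replicate block, 4-library fits and leaving out each library. No protein or promoter sequence was used here.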

Additional observations from a re-analysis of the deposited data

How the results depend on the processing

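Of the 11 calls on the 6 genes not chosen for their direction, 4 held under each of the 13 alternatives run. These were EDNRA in both knockdown lines against shCON, VEGFC in shUCHL1 and EDNRB in shHSPA8. EDNRB entered the test through the shHSPA8 libraries alone, so its call remains weak support. The 9 calls on FLT1, JAM2, EMCN and EDN1 all held, which says nothing independent of that choice. No called value of any described gene reversed. Over 6 fits that each left out 1 library, calls among the 10 genes ran from 6 to 7 in shUCHL1, 6 to 7 in shHSPA8 and 1 to 6 between the knockdown lines. Those of the other pathway genes ran from 7 to 22, 18 to 29 and 3 to 34, and those of all genes from 528 to 2615, 920 to 2416 and 257 to 3083. Leaving out a library leaves a line with 1, which is assumed to vary like the others.

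With the replicate block 3 of the 10 genes (in place of 5) and 15 other pathway genes (in place of 25) were called between the knockdown lines. The block removed the VEGFC calls in shHSPA8 (adjusted p = 0.127) and between the knockdown lines (0.0671), the ANGPT2 call between those lines (0.0575), the PGF call in shUCHL1 (0.0596) and the ECE1 call in shHSPA8 (0.116). Calls over all genes under the block fell from 1987 to 1230 in shUCHL1, from 1859 to 1131 in shHSPA8 and from 1843 to 923 between the lines. The labels give the replicate number no meaning, and deviations of same-numbered libraries correlated at 0.45 (shCON and shUCHL1), -0.78 (shCON and shHSPA8) and -0.47 (shUCHL1 and shHSPA8), so the numbers were not taken to pair the libraries. With the length offset 38 other pathway genes and 2888 of all genes were called between the knockdown lines. Fits to the 4 libraries compared called 1104 genes in shHSPA8 and 3116 between the knockdown lines. The cause of these shifts was not tested. Library-size scaling moved the median log2 fold change of all genes between the knockdown lines from 0.02 to 0.12; against shCON it was 0.09 in shUCHL1 and -0.03 in shHSPA8. Depth limits KDR, EDNRB and ANGPT2, with at most 30 counts in any library.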
